A study of Mus musculus with 16 samples.

Results

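The 37 genes described here are interferon-stimulated genes, taken by name as a list and looked up in the deposited table through their Ensembl identifiers. The list was chosen with earlier results of these data known, so its counts below are no independent evidence of a direction. All 37 were among the 23306 genes of the table, and all 37 passed the filter on low values, with 16509 genes tested in all. RNA sequencing measured them in mouse endometrial epithelial organoids, small structures cultured from cells of the lining of the uterus. The groups were cKO organoids given E2/MPA (libraries M13 to M16), cKO organoids given vehicle (M5 to M8), control organoids given E2/MPA (M9 to M12) and control organoids given vehicle (M1 to M4), with 4 libraries in each. Control mice carried floxed Tgfbr2 (Tgfbr2 FF), and cKO mice carried the same floxed alleles with PRcre, a Cre recombinase driven from the progesterone receptor gene. As Cre was present in cKO organoids only, the deletion and the presence of Cre cannot be told apart. Treatment began after 2 days in culture. The E2/MPA groups received estradiol (E2) alone at 10 nM for 2 days, and then for 4 days the same dose together with the synthetic progestin medroxyprogesterone acetate (MPA) at 1 µM, while the vehicle groups received vehicle for all 6 days. E2 and MPA were thus given in sequence as 1 treatment, and their effects cannot be told apart. The labels name no interferon treatment in any group.

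Interferons are cytokines that put cells into an antiviral state. Type I and type III interferons bind their receptors and activate JAK kinases, and a complex that contains STAT2 and IRF9 then binds a DNA element called ISRE in front of many of the genes described here. Interferon gamma acts through a different element, GAS. Many of these genes also have a basal level without infection, and the mouse uterine epithelium is known for making interferon epsilon, a type I interferon.

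Tgfbr2, the targeted gene, had 3568 to 5526 normalized counts in cKO and 4103 to 7794 in control organoids under E2/MPA, and 3520.1 to 5439 in cKO and 4852 to 8054 in control organoids under vehicle. The ranges overlapped under both treatments and neither difference passed the test (adjusted p = 0.69 under E2/MPA and 0.83 under vehicle), and the sources used here do not say which exons are deleted. Total depth was 14372111 to 20016836 reads per library.

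The libraries differed widely in markers of other cell types, and these values stand beside all results below. Epithelial markers (Epcam, Cdh1 and 7 others) had summed normalized counts of 121690.5 to 196503 in the 16 libraries. Foxa2 among them was far lower than the rest, at 70.0 to 242.7. Cldn3 of this list passed the limma test as higher under E2/MPA. Its log2 fold change was 0.57 in cKO (adjusted p = 0.013) and 0.99 in control organoids (adjusted p = 1.7e-04). The 8 stromal fibroblast markers, collagens among them, summed to 1894 to 33518 in cKO E2/MPA and 1383 to 18259 in cKO vehicle libraries. Among control libraries they summed to 1418 to 39731 under E2/MPA and 774 to 46968 under vehicle. In each group 1 library was the highest for these markers, M16 in cKO E2/MPA, M8 in cKO vehicle, M12 in control E2/MPA and M4 in control vehicle, and these 4 are called stroma-rich below. They summed to 18259 to 46968, against 774 to 17458 in the other 12, of which M9 was the highest. Lum was at 0 in M5 and M7 and Hand2 at 0 in M2, M3, M10, M11, M14 and M15, while the 3 collagen markers were above 0 in every library. The 10 macrophage and myeloid markers summed to 3321 to 4279 in cKO E2/MPA and 1951 to 3661 in cKO vehicle libraries. Among control libraries they summed to 2954 to 21422 under E2/MPA and 2452 to 15752 under vehicle, with M12 and M4 far above the rest. Averaged over genotypes, the median log2 fold change under E2/MPA was 0.54 for the stromal and 0.50 for the macrophage markers. Of the 8 stromal and 10 macrophage markers, 0 passed the test for E2/MPA against vehicle in either genotype or averaged. In these bulk libraries, fewer cells of a type and less RNA per cell cannot be told apart.

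Under E2/MPA many of these genes were lower and 1 was higher. Averaged over both genotypes, 15 of the 37 genes were lower under E2/MPA at an adjusted p under 0.05, which is 40.5% of them, while 9.03% of all genes tested were lower by the same rule. The 15 were Irf1, Irf7, Irf9, Ddx58, Dhx58, Oasl2, Mx1, Usp18, Trim25, Dtx3l, Parp14, Psmb8, Psmb9, Ifi44 and Rtp4. The exonuclease gene Isg20 was the 1 gene that rose, where 10.8% of all genes tested were higher. In either direction 16 of the 37 genes passed, against 19.8% of all genes tested. The median log2 fold change of the 37 genes was -0.35, against -0.0024 over all genes tested, and 33 of the 37 were below 0, against 50.4% of all genes tested. The count of 16 genes was 10 when M6, M8, M10 or M13 was left out, each in turn, and 20 without M12. Of all genes, 3010 passed without M6, 2717 without M8, 2614 without M10, 2626 without M13 and 3860 without M12, against 3269 with all libraries. Values are normalized read counts, given in the order of the library numbers. Adjusted p-values come from 1 limma fit over all 16 libraries, and a fold change given without a genotype is the mean of the cKO and the control response, on the scale log2(normalized count + 1).

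**Figure D1:**
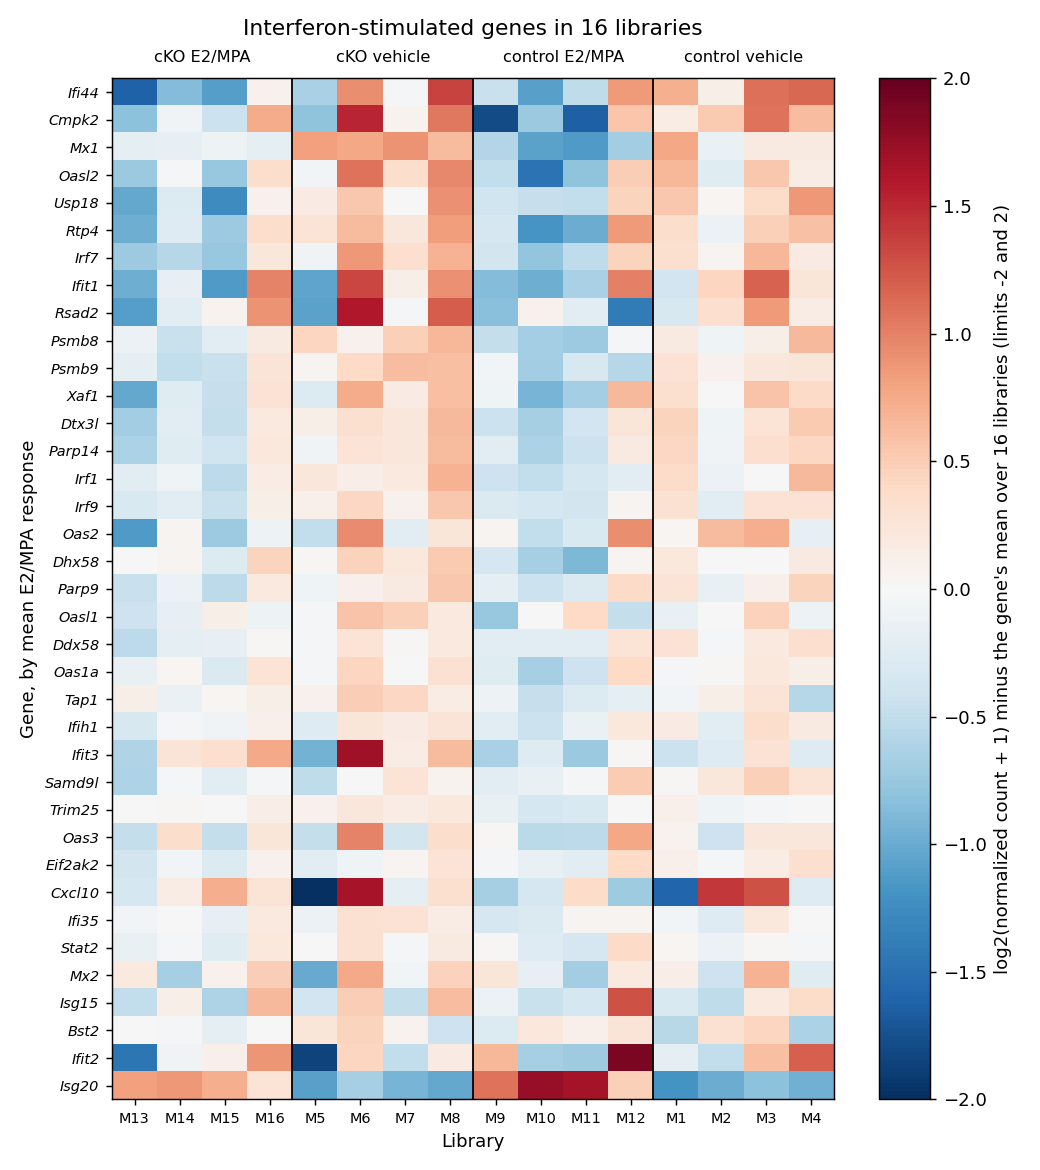
Heatmap of the 37 genes in 16 libraries. Each cell is log2(normalized count + 1) minus the gene's mean over the 16 libraries, genes run down the page by their mean response to E2/MPA, and libraries run across it by group. Blue cells prevail in the E2/MPA groups except in M12 and M16, and Isg20 in the bottom row has the opposite pattern.

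Within 1 genotype, with 4 libraries against 4 that were treated as independent, few of the genes passed. In cKO organoids Mx1 was lower and Isg20 higher under E2/MPA, so 1 of 37 genes in each direction, where 1.48% of all genes tested were lower, 2.71% higher and 4.19% either. At an unadjusted p under 0.05 the count in cKO was 14 of 37, against 18.6% of all genes tested. In control organoids Mx1 and Psmb8 were lower and Isg20 higher, where 3.51% of all genes tested were lower, 5.39% higher and 8.9% either. At an unadjusted p under 0.05 the count in control was 16 of 37, against 23.9% of all genes tested. Averaged over genotypes it was 20 of 37, against 33.3%. In cKO organoids the E2/MPA and vehicle libraries did not overlap for Mx1, which was lower, and Isg20, which was higher, where 5.8% of all genes tested were lower and 8.01% higher without overlap. In control organoids they did not overlap for Irf1, Mx1 and Psmb9, which were lower, and Isg20, which was higher, where 5.49% of all genes tested were lower and 6.66% higher without overlap. In cKO organoids 34 of 37 fold changes were below 0, against 50.7% of all genes tested, and in control organoids 33 of 37, against 50.1%. The median of the 37 genes was -0.41 in cKO organoids, against -0.0039 over all genes tested, and -0.32 in control organoids, against -8e-04. In control organoids 3 genes passed in all, against 14 without M12, 5 without M2 or M16 and 2 without M1, M4, M10 or M11. The count over all genes was 1469 in all, 2230 without M12, 1766 without M2 and 1479 without M16. It was 803 without M1, 1169 without M4, 759 without M10 and 781 without M11. In cKO organoids 2 genes passed in all, against 7 without M16, with 692 and 703 over all genes.

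Many of the 37 genes were highest and lowest in the same libraries. M16 had the highest value of its group for 30 of the 37 genes and M12 for 29, and both were the stroma-rich library of their E2/MPA group. M8 and M4 had the highest value of their vehicle group for 13 and 12 genes, and M6 and M3, which were low in stromal markers, for 21 and 17. M5 was the lowest of the cKO vehicle libraries for 28 genes and M2 the lowest of the control vehicle libraries for 25. Without the 4 stroma-rich libraries, 21 genes passed in the averaged comparison, 20 lower and 1 higher, and they included the 16 named above. Without those libraries 8 genes passed in cKO and 16 in control organoids, 1 of them higher in each, and 12 libraries remained. More of all genes passed there too: 3704 averaged, 959 in cKO and 2210 in control organoids, against 3269, 692 and 1469 with all 16 libraries. With every E2/MPA library except M16 and M12 set against all vehicle libraries of the same genotype, 14 of the 37 genes lay below without overlap in both genotypes, where 5.34% of all genes tested did. M16 and M12 were left out here after their values were seen, and they were the highest of their groups for most of these genes. The choice itself thus raises the count of 14, which cannot be weighed against the share of all genes. With all libraries, 1 of the 37 genes lay below without overlap in both genotypes, against 2.15% of all genes tested. The part of stromal or immune cells in the result was not tested.

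**Figure D2:**
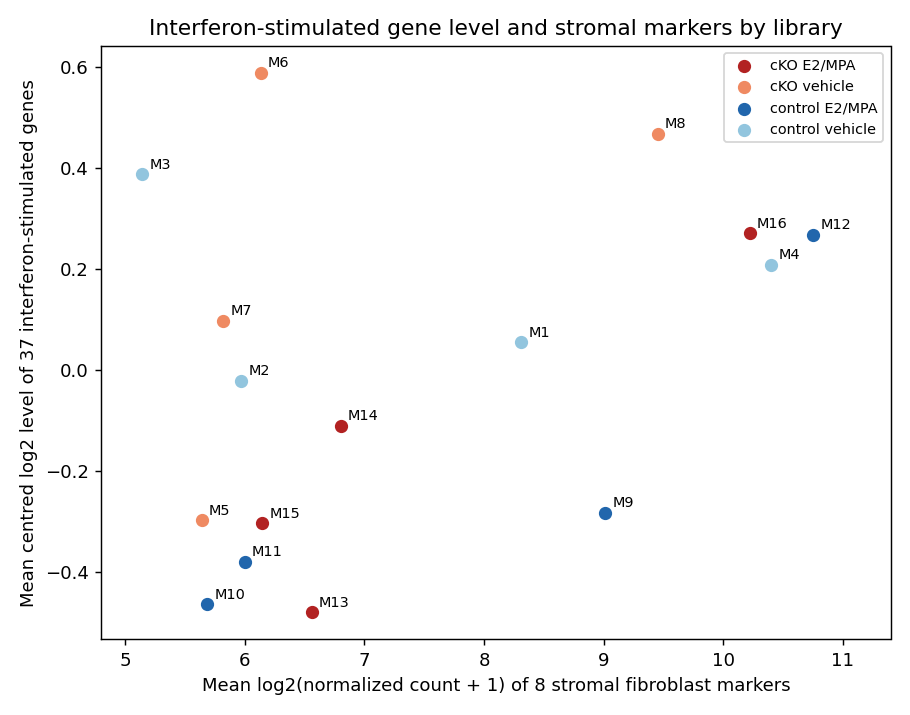
Each point is 1 library, with the mean log2(normalized count + 1) of 8 stromal fibroblast markers on the x axis and the mean log2 level of the 37 genes, each centred on its mean over all libraries, on the y axis. M16 and M12 lie above the other E2/MPA libraries on both axes, and the highest level of the 37 genes is in M6, which is low in stromal markers.

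Promoter sequences were at hand for 29 of the 37 genes, from RefSeq on the mouse build GRCm38.p6, as windows of 300 bases from 250 before to 50 after the start of transcription. Those without a window were Dhx58, Oas2, Mx1, Mx2, Usp18, Parp9, Parp14 and Rtp4. The submitters' processing notes name another build, GRCm39, so these coordinates are not on that build. The ISRE core, GAAA and again GAAA with NN (any bases) between them, was searched on both strands and was found in 12 of the 29 genes, or 41.4%, against 3.99% of the 27025 genes with a window. The GAS core TTCNNNGAA, which reads the same on both strands, was found in 8 of 29, or 27.6%, against 9.55%. The next lines show the element in genes that did not pass the averaged test although they are textbook interferon targets. Sequences run 5′ to 3′ on the strand of the gene, with matches to the ISRE core in capitals, and neighbouring matches can overlap.
Isg15: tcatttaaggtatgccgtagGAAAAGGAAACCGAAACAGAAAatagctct
Bst2: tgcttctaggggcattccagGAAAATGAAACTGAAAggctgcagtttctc
Ifit1: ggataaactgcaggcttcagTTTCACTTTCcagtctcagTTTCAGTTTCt
Oas1a: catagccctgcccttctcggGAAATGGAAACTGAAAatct
Stat2: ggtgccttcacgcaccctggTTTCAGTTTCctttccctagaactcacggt
In 27 of the 29 genes the bases after the start were also found in a GENCODE transcript of the gene, and in Stat2 and Bst2 they were not. The sequences lie at chr4:156200867-156200916 (minus strand, Isg15), chr8:71537573-71537622 (minus strand, Bst2), chr19:34640765-34640814 (plus strand, Ifit1), chr5:120907526-120907565 (minus strand, Oas1a) and chr10:128270256-128270305 (plus strand, Stat2). Of the 12 genes with the ISRE core, 1 was lower under E2/MPA in the averaged test (Ddx58) and 0 were higher, and of the 17 without it, 9 were lower and 1 was higher. All of the 12 but Bst2 and Isg15 had an averaged fold change below 0, so not passing does not show that they were unchanged. Genes without a window enter no count by element, and Dhx58, Mx1, Usp18, Parp14 and Rtp4 among them were lower in that test. Among the genes tested that had a window, 10.2% of the 402 with the ISRE core and 9.91% of the 10692 without it were lower.

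The GAS core is shown for 3 genes that did pass, Irf1 and Psmb8 as lower and Isg20 as higher, with the match in capitals.
Irf1: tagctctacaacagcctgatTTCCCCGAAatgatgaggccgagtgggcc
Psmb8: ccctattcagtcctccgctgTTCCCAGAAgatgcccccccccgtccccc
Isg20: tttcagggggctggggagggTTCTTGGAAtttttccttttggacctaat
These lie at chr11:53769904-53769952 (plus strand, Irf1), chr17:34198078-34198126 (plus strand, Psmb8) and chr7:78913331-78913379 (plus strand, Isg20), the last at 1 of the 3 start sites listed for Isg20. Of the 8 genes with a GAS core 2 were lower and 1 higher in the averaged test, and of the 21 without it 8 were lower and 0 higher. Among the genes tested that had a window, 9.61% of the 926 with the GAS core and 9.95% of the 10168 without it were lower. A match describes the letters in the window and is no evidence of binding.

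**Figure D3:**
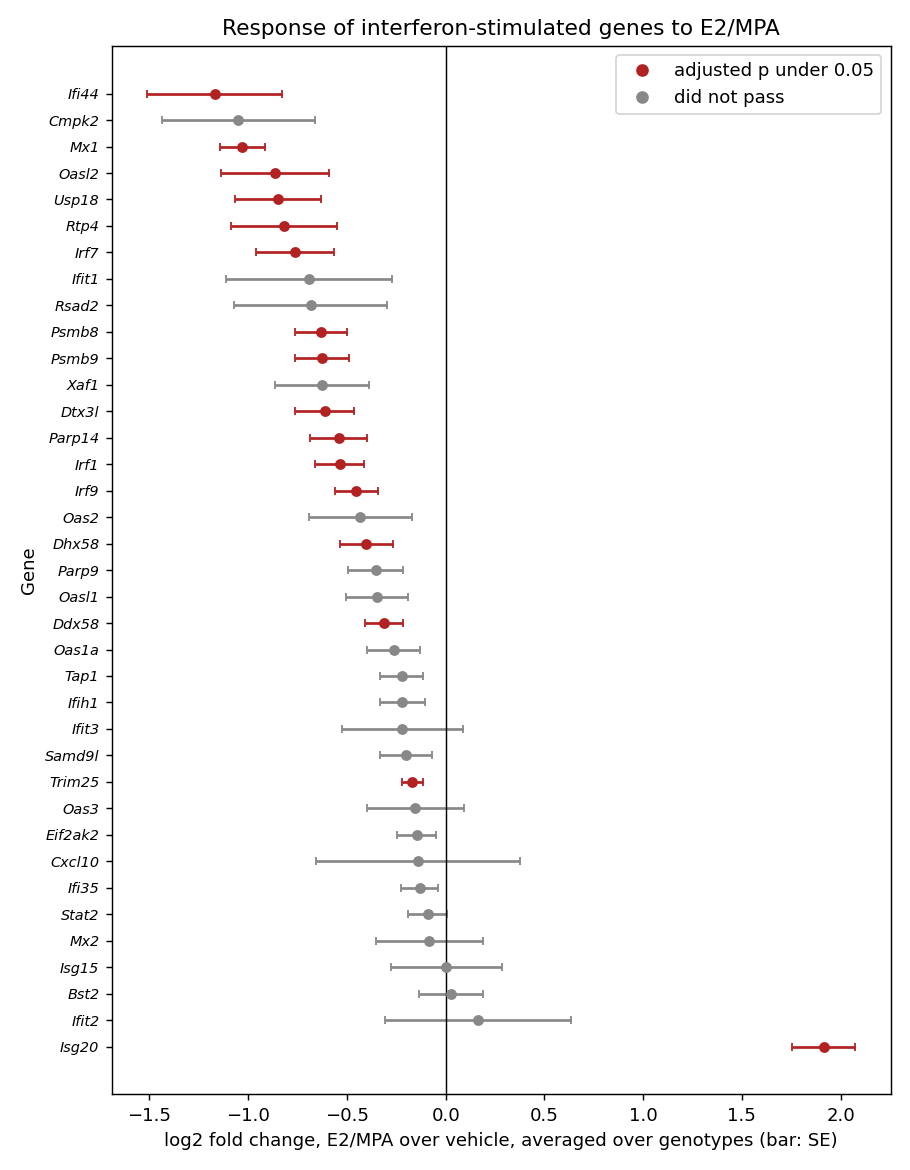
Log2 fold change of each of the 37 genes under E2/MPA over vehicle, averaged over genotypes, with the standard error as a bar. Red points passed an adjusted p of 0.05. Isg20 stands alone on the right at 1.91, the 15 other red points lie between -1.17 and -0.17, and Isg15, Bst2 and Ifit2 lie at or just above 0.

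Among the transcription factors, 3 of 4 fell under E2/MPA, where 9.03% of all genes tested were lower. The median log2 fold change over the 4 was -0.49. Irf1 encodes a factor that is itself induced by interferon gamma and acts on antigen presentation genes. In cKO organoids, Irf1 counts were 372, 410.4, 303 and 485 under E2/MPA, against 513, 481, 500.3 and 708 under vehicle. In control organoids, Irf1 counts were 329.6, 312, 344 and 378 under E2/MPA, against 564, 405, 435 and 686 under vehicle. The groups overlapped in cKO, where M16 lay above M6, and did not overlap in control organoids. Irf1 fell by 0.54 ± 0.12 (SE, adjusted p = 0.0076).

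Irf7, the factor that amplifies the type I interferon genes, fell more. In cKO organoids, Irf7 counts were 187, 207, 181 and 361 under E2/MPA, against 294, 563, 391 and 501 under vehicle. In control organoids, Irf7 counts were 239, 177, 217 and 418 under E2/MPA, against 385, 322, 488 and 346 under vehicle. In both genotypes 3 of 4 E2/MPA libraries lay below every vehicle library, and the exceptions were M16 and M12. Irf7 fell by 0.76 ± 0.20 (SE, adjusted p = 0.014). Irf9 encodes the DNA-binding part of the complex that occupies the ISRE. In cKO organoids, Irf9 counts were 672, 708, 609.8 and 904 under E2/MPA, against 893, 1109.6, 884 and 1215 under vehicle. In control organoids, Irf9 counts were 683, 654, 648 and 859.9 under E2/MPA, against 1031, 712, 1013 and 1018 under vehicle. Here too M16 and M12 were the E2/MPA libraries that reached into the vehicle range, and M2 was the low library under vehicle in control organoids. Irf9 fell by 0.45 ± 0.11 (SE, adjusted p = 0.0093). The partner of Irf9 in that complex, Stat2, did not pass. In cKO organoids, Stat2 counts were 932, 1013, 869 and 1188 under E2/MPA, against 1024, 1265, 1014 and 1159 under vehicle. In control organoids, Stat2 counts were 1048, 863, 818 and 1348 under E2/MPA, against 1059.9, 945, 1046 and 1007 under vehicle. The groups overlapped in both genotypes, and the difference was -0.09 ± 0.10 (SE, adjusted p = 0.57).

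The RNA sensors recognise viral RNA in the cytoplasm, and 2 of 3 fell, where 9.03% of all genes tested were lower. Ddx58 encodes RIG-I. In cKO organoids, Ddx58 counts were 318, 403, 406 and 463 under E2/MPA, against 448, 554, 464 and 520.3 under vehicle. In control organoids, Ddx58 counts were 393, 388, 389.8 and 549 under E2/MPA, against 560.2, 442, 525 and 577 under vehicle. All E2/MPA libraries but M16 and M12 lay below the vehicle libraries of their genotype. Ddx58 fell by 0.31 ± 0.10 (SE, adjusted p = 0.033), with an adjusted p of 0.052 to 0.069 in the 9 fits that each left out M1, M4, M6, M8, M9, M10, M11, M13 or M14. Dhx58 encodes LGP2, a relative of RIG-I without a signalling domain. In cKO organoids, Dhx58 counts were 278, 287, 229 and 374 under E2/MPA, against 282, 379, 318 and 395 under vehicle. In control organoids, Dhx58 counts were 217, 174, 147 and 287 under E2/MPA, against 318, 277, 277 and 314 under vehicle. The groups overlapped in cKO, and in control organoids 3 of 4 E2/MPA libraries lay below all vehicle libraries. Dhx58 fell by 0.40 ± 0.13 (SE, adjusted p = 0.046), a call near the threshold that was lost in 13 of 16 fits without 1 library (all but those without M5, M12 or M16), at an adjusted p of 0.051 to 0.095. With all libraries, the Dhx58 call was also lost with edgeR and with no filter on low values. The third sensor, Ifih1 (MDA5), did not pass. In cKO organoids, Ifih1 counts were 249, 306, 296 and 333 under E2/MPA, against 260.3, 367, 347 and 373 under vehicle. In control organoids, Ifih1 counts were 268, 229, 283 and 359.6 under E2/MPA, against 346, 265, 398 and 352 under vehicle. The ranges overlapped in both genotypes, and the difference was -0.22 ± 0.11 (SE, adjusted p = 0.19).

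The OAS family makes the second messenger that activates RNase L, an activity that Oasl1 is known to lack in mice. Its genes lie close together and resemble each other, so reads could be split among copies, and their values are uncertain to that extent. Only Oasl2 of 5 fell, where 9.03% of all genes tested were lower. In cKO organoids, Oasl2 counts were 125, 207, 123 and 267 under E2/MPA, against 202, 447, 268 and 409.9 under vehicle. In control organoids, Oasl2 counts were 149, 75.0, 120.1 and 297 under E2/MPA, against 332, 177, 305 and 234 under vehicle. The groups overlapped in both genotypes, and M12 was the highest control E2/MPA library. Oasl2 fell by 0.86 ± 0.27 (SE, adjusted p = 0.038), and the call was lost in 9 fits that each left out M1, M3, M6, M8, M9, M10, M11, M13 or M15, at an adjusted p of 0.055 to 0.079. With all libraries, the Oasl2 call was also lost with edgeR. Oas1a and Oasl1, the members with the highest mean count, did not pass. In cKO organoids, Oas1a counts were 506, 575, 458 and 673 under E2/MPA, against 552, 756, 559 and 687 under vehicle. In control organoids, Oas1a counts were 470.4, 351, 418 and 737 under E2/MPA, against 552, 566, 647 and 609 under vehicle. M12 was the highest of all control libraries. In cKO organoids, Oasl1 counts were 321, 381, 467 and 400.0 under E2/MPA, against 417, 638, 594 and 492 under vehicle. In control organoids, Oasl1 counts were 253, 430.0, 567 and 309 under E2/MPA, against 385, 426, 588 and 398 under vehicle. The ranges overlapped for both genes in both genotypes, and the differences were -0.26 ± 0.13 (SE, adjusted p = 0.18) for Oas1a and -0.35 ± 0.16 (SE, adjusted p = 0.14) for Oasl1. Oas1a passed without M12, at an adjusted p of 0.016, and Oasl1 without M11, at 0.043.

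Of the 11 antiviral effector genes, Mx1 fell and Isg20 rose, with a median of -0.20 over the 11. These shares were near those of all genes tested, of which 9.03% were lower and 10.8% higher. Mx1 encodes a GTPase that blocks influenza virus in mice, and many laboratory strains carry an allele that makes no functional protein. In cKO organoids, Mx1 counts were 416, 420.0, 440.0 and 413 under E2/MPA, against 834, 804, 879.7 and 731 under vehicle. In control organoids, Mx1 counts were 314, 224, 215 and 290.3 under E2/MPA, against 808, 428, 537 and 533 under vehicle. The groups did not overlap in either genotype, and Mx1 was the 1 gene of the 37 below without overlap in both, where 2.15% of all genes tested were. The mean was 342 ± 92.4 under E2/MPA and 694 ± 169.7 under vehicle (SD, n = 8 each), so that E2/MPA libraries had 49.2% of the vehicle mean. Mx1 fell by 0.94 ± 0.16 (SE, adjusted p = 0.0046) in cKO and by 1.12 ± 0.16 (SE, adjusted p = 6.9e-04) in control organoids. Both calls were kept in all 29 other settings tried, the fits without 1 library among them.

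Isg20 encodes an RNA exonuclease that interferon induces, and in human cells estrogen is also known to induce it. In cKO organoids, Isg20 counts were 1401, 1455, 1312 and 957 under E2/MPA, against 375, 499, 418 and 389.8 under vehicle. In control organoids, Isg20 counts were 1690.3, 2657, 2532 and 1102 under E2/MPA, against 348, 399.6, 452 and 406 under vehicle. Every E2/MPA library lay above every vehicle library. The mean was 1638 ± 631 under E2/MPA and 411 ± 46.8 under vehicle (SD, n = 8 each), a 3.99-fold difference. The log2 fold change was 1.60 ± 0.23 (SE, adjusted p = 0.0011) in cKO and 2.23 ± 0.23 (SE, adjusted p = 4.2e-05) in control organoids, and both calls were kept in all 29 other settings. M16 and M12, which were highest of their groups for most of the 37 genes, were the lowest of their groups for Isg20.

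**Figure D4:**
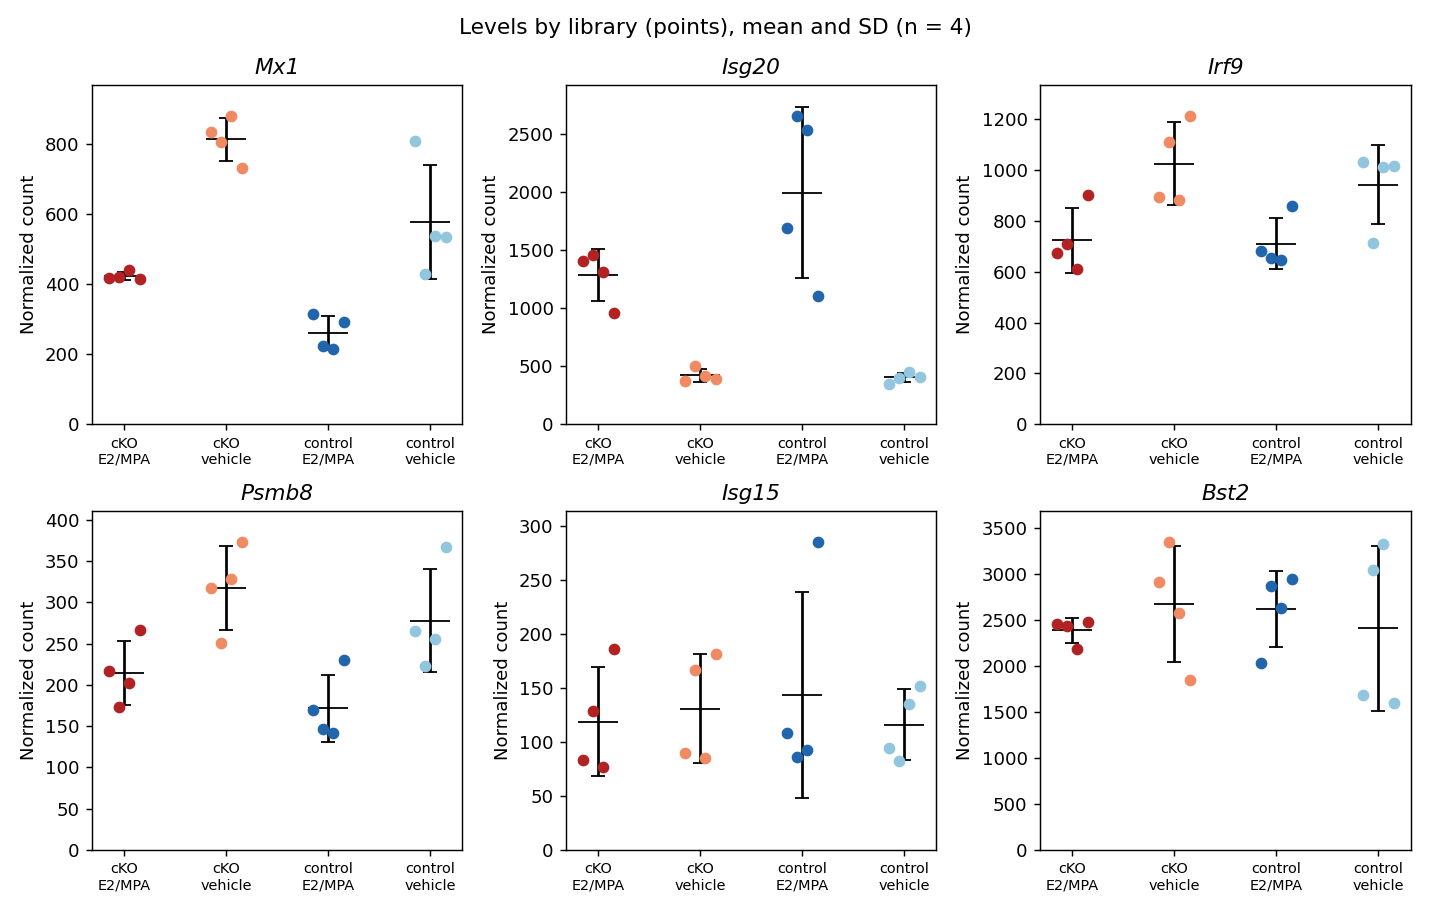
Normalized counts of 6 genes by group, with 1 point per library and the mean and SD (n = 4) in black, on axes that start at 0. Mx1, Irf9 and Psmb8 are lower on average and Isg20 is higher under E2/MPA. Within each genotype the treatments do not overlap for Mx1 and Isg20, and they overlap for Irf9, Psmb8, Isg15 and Bst2.

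Bst2 encodes tetherin, a protein that holds virus particles at the cell surface, and Eif2ak2 encodes PKR, a kinase that stops translation. In cKO organoids, Bst2 counts were 2451, 2431, 2183 and 2472 under E2/MPA, against 2914, 3349, 2573 and 1845 under vehicle. In control organoids, Bst2 counts were 2031, 2861, 2629 and 2940.2 under E2/MPA, against 1684, 3034, 3319 and 1589.9 under vehicle. The E2/MPA values lay within the range of the vehicle values in both genotypes, and the difference was 0.03 ± 0.16 (SE, adjusted p = 0.93). In cKO organoids, Eif2ak2 counts were 878, 1090.2, 937 and 1194 under E2/MPA, against 966, 1061, 1169 and 1359 under vehicle. In control organoids, Eif2ak2 counts were 1108, 1013, 975 and 1479 under E2/MPA, against 1212, 1105, 1255 and 1429 under vehicle. These ranges overlapped as well, with a difference of -0.15 ± 0.10 (SE, adjusted p = 0.34). Ifit1 and Cmpk2, picked after their values were seen, had mean counts of 46.1 and 41.6 over all libraries. Ifit1 and its relatives sit side by side and resemble each other, so their reads could be split. In cKO organoids, Ifit1 counts were 19.0, 34.3, 17.1 and 77.4 under E2/MPA, against 18.0, 99.1, 41.8 and 73.6 under vehicle. In control organoids, Ifit1 counts were 20.6, 19.0, 24.2 and 78.1 under E2/MPA, against 29.3, 51.9, 88.4 and 45.6 under vehicle. The values varied several-fold within every group, and the treatments overlapped. Cmpk2 encodes a mitochondrial nucleotide kinase. In cKO organoids, Cmpk2 counts were 19.0, 32.6, 25.1 and 58.1 under E2/MPA, against 19.1, 99.96, 36.1 and 71.9 under vehicle. In control organoids, Cmpk2 counts were 9.15, 19.999, 10.4 and 50.6 under E2/MPA, against 38.1, 49.7, 73.6 and 52.8 under vehicle. In control organoids M12 was the 1 E2/MPA library inside the vehicle range for Cmpk2. The differences were -0.69 ± 0.42 (SE, adjusted p = 0.27) for Ifit1 and -1.05 ± 0.39 (SE, adjusted p = 0.073) for Cmpk2, whose adjusted p was 0.021 without the 4 stroma-rich libraries. Cmpk2 also passed without M5 (0.030), M12 (0.016) or M16 (0.045) alone.

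The ISG15 and ubiquitin group held 6 genes, of which 4 fell, where 9.03% of all genes tested were lower. The median over the 6 was -0.45. Isg15 itself, a ubiquitin-like protein that is attached to other proteins, did not pass and was picked after its values were seen. In cKO organoids, Isg15 counts were 83.3, 129, 76.4 and 186 under E2/MPA, against 89.8, 167, 84.7 and 182 under vehicle. In control organoids, Isg15 counts were 109, 86.0, 92.5 and 286 under E2/MPA, against 94.8, 82.4, 135 and 152 under vehicle. The groups overlapped and the difference was 0.00 ± 0.28 (SE, adjusted p = 0.99), and without the 4 stroma-rich libraries it was -0.15 (adjusted p = 0.65). Usp18 removes Isg15 from proteins and also dampens the type I interferon receptor. In cKO organoids, Usp18 counts were 149, 251, 127 and 325 under E2/MPA, against 340.0, 442, 302 and 574 under vehicle. In control organoids, Usp18 counts were 230.0, 220.0, 217 and 415 under E2/MPA, against 444, 313, 393 and 554 under vehicle. All E2/MPA libraries but M16 and M12 lay below the vehicle libraries of their genotype, and Usp18 fell by 0.85 ± 0.22 (SE, adjusted p = 0.013).

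Trim25 encodes the ubiquitin ligase that acts on RIG-I, and it is also known as an estrogen-responsive gene. In cKO organoids, Trim25 counts were 3690.4, 3795, 3724 and 4069 under E2/MPA, against 3945, 4375, 4140.1 and 4316 under vehicle. In control organoids, Trim25 counts were 3362, 2908, 3006 and 3713 under E2/MPA, against 4015, 3496, 3627 and 3757 under vehicle. All E2/MPA libraries but M16 and M12 lay below the vehicle libraries of their genotype. Trim25 fell by 0.17 ± 0.05 (SE, adjusted p = 0.04), the smallest change of the 15. The call was lost in 10 fits that each left out M1, M4, M6, M7, M8, M10, M11, M13, M14 or M15, at an adjusted p of 0.059 to 0.085. With all libraries, the Trim25 call was also lost with no filter on low values. Dtx3l encodes a ubiquitin ligase. In cKO organoids, Dtx3l counts were 263, 369, 307 and 490.3 under E2/MPA, against 464, 534, 499 and 668 under vehicle. In control organoids, Dtx3l counts were 317, 269, 327 and 506 under E2/MPA, against 581, 404, 518 and 616 under vehicle. Parp14 encodes an ADP-ribosyltransferase. In cKO organoids, Parp14 counts were 613, 800.5, 718 and 1094 under E2/MPA, against 899, 1147, 1114 and 1469.9 under vehicle. In control organoids, Parp14 counts were 816, 614, 702 and 1071 under E2/MPA, against 1265, 905, 1199.6 and 1270.0 under vehicle. For both genes M16 and M12 were the E2/MPA libraries inside the vehicle range, and the 3 others of each group lay below it. Dtx3l fell by 0.61 ± 0.15 (SE, adjusted p = 0.011) and Parp14 by 0.54 ± 0.14 (SE, adjusted p = 0.015).

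Of the 4 antigen processing and chemokine genes, both immunoproteasome subunits fell averaged over genotypes, where 9.03% of all genes tested were lower. Psmb8 and Psmb9 encode catalytic subunits that interferon gamma exchanges into the proteasome. In cKO organoids, Psmb8 counts were 217, 173, 202 and 267 under E2/MPA, against 318, 251, 329 and 374 under vehicle. In control organoids, Psmb8 counts were 169, 146, 142 and 229.8 under E2/MPA, against 266, 222, 255 and 368 under vehicle. The overlap with vehicle came from M16 in cKO and from M12 in control organoids. Psmb8 fell by 0.63 ± 0.13 (SE, adjusted p = 0.0044) averaged over genotypes and by 0.69 ± 0.19 (SE, adjusted p = 0.034) in control organoids, where the call was lost in the fits without M1, M3, M4, M9, M10 or M11, at an adjusted p of 0.052 to 0.11. The Psmb8 call in control organoids was also lost when the fit held only the compared groups, at an adjusted p of 0.113. In cKO organoids, Psmb9 counts were 55.9, 44.9, 46.7 and 76.3 under E2/MPA, against 66.2, 84.8, 98.3 and 97.0 under vehicle. In control organoids, Psmb9 counts were 61.8, 39.0, 51.0 and 42.9 under E2/MPA, against 78.2, 67.7, 75.3 and 76.0 under vehicle. In control organoids the groups did not overlap, and in cKO organoids only M16 reached into the vehicle range. Psmb9 fell by 0.63 ± 0.14 (SE, adjusted p = 0.0053). Tap1, a subunit of the transporter that carries peptides to MHC class I molecules, did not pass. In cKO organoids, Tap1 counts were 433, 363, 411 and 433 under E2/MPA, against 425, 559, 529 and 440.0 under vehicle. In control organoids, Tap1 counts were 369.6, 289, 328 and 349.7 under E2/MPA, against 383, 435, 479.5 and 267 under vehicle. The ranges overlapped, and the difference was -0.22 ± 0.11 (SE, adjusted p = 0.17). Without M4 alone it was -0.31 (adjusted p = 0.019), and without the 4 stroma-rich libraries -0.36 (adjusted p = 0.018).

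The remaining members are interferon-induced genes whose roles are less settled. Ifi44 had the largest fall by fold change. In cKO organoids, Ifi44 counts were 51.2, 87.2, 74.1 and 169.9 under E2/MPA, against 101, 307, 156 and 407 under vehicle. In control organoids, Ifi44 counts were 117, 75.0, 112 and 289 under E2/MPA, against 263, 173, 345 and 355 under vehicle. As with Irf7, M16 and M12 were the E2/MPA libraries inside the vehicle range. Ifi44 fell by 1.17 ± 0.34 (SE, adjusted p = 0.026), and the call was lost without M6, M8, M10, M11 or M13, at an adjusted p of 0.051 to 0.057. In cKO organoids, Rtp4 counts were 101, 166, 119.7 and 254 under E2/MPA, against 241, 309, 234 and 355 under vehicle. In control organoids, Rtp4 counts were 158, 87.0, 99.4 and 361 under E2/MPA, against 254, 184, 279 and 299.9 under vehicle. M16 lay inside the vehicle range of cKO organoids and M12 above that of control organoids, and the other E2/MPA libraries lay below. Rtp4, first described as a receptor transporter, fell by 0.82 ± 0.27 (SE, adjusted p = 0.043), a call lost in 13 of the 16 fits without 1 library (all but those without M2, M12 or M16), at an adjusted p of 0.053 to 0.091. With all libraries, the Rtp4 call was also lost with edgeR, DESeq2 and no filter on low values, at an adjusted p of up to 0.094. In cKO organoids, Ifi35 counts were 283, 298, 262 and 339 under E2/MPA, against 272, 366, 361 and 325 under vehicle. In control organoids, Ifi35 counts were 233, 242, 306 and 307 under E2/MPA, against 284, 246, 340.4 and 298 under vehicle. Ifi35 overlapped between treatments in both genotypes, and the difference was -0.13 ± 0.09 (SE, adjusted p = 0.36).

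The other 10 genes (Oas2, Oas3, Mx2, Ifit2, Ifit3, Rsad2, Samd9l, Parp9, Cxcl10 and Xaf1) did not pass. Their fold changes ran from -0.68 to 0.16 with adjusted p from 0.077 to 0.88, and 9 of 10 were below 0. Xaf1 had the lowest adjusted p and Cxcl10, a chemokine, the lowest mean count at 9.98. The spread within groups differed widely among the 37 genes. Its SD on the log2 scale was 0.10 to 0.75 with a median of 0.30 in the 16 genes that passed, and 0.19 to 1.097 with a median of 0.51 in the 21 that did not. The SD was 0.84 or higher in Cmpk2, Rsad2, Ifit1, Ifit2 and Cxcl10.

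Genotype made no difference that passed the test. Under E2/MPA, 0 of the 37 genes passed for cKO against control, where 1 of the 16509 genes tested did (0.00606%), and 4 had an unadjusted p under 0.05 (Dhx58, Mx1, Isg20 and Trim25) against 10.9% of all genes tested. Under vehicle 0 genes passed, of the 37 and of all genes, and 3 of the 37 had an unadjusted p under 0.05 (Mx1, Trim25 and Tap1) against 5.96% of all. edgeR on the recovered reads called 0 of the 37 genes in both comparisons, and DESeq2 called 1 under E2/MPA, Mx1, and 0 under vehicle. Of all genes, edgeR called 1 under E2/MPA and 0 under vehicle, and DESeq2 called 193 under E2/MPA and 14 under vehicle. With library weights, limma called Dhx58, Mx1, Isg20 and Trim25 under E2/MPA, of 597 genes in all. The median log2 fold change of the 37 genes was 0.02 under E2/MPA and 0.09 under vehicle, against -0.0091 under E2/MPA and 0.001 under vehicle over all genes tested. Under E2/MPA 15 of 37 fold changes were below 0, against 51.9% of all genes tested, and under vehicle 14 of 37, against 49.8%. Under vehicle 0 of the 37 genes had cKO libraries that did not overlap with control libraries, where 1.37% of all genes tested were lower and 1.64% higher without overlap.

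Mx1 was the member with the clearest separation of the genotypes. Under E2/MPA its 4 cKO libraries, at 413 to 440.0, lay above the 4 control libraries, at 215 to 314, and it was the 1 gene of the 37 without overlap in that direction, where 3.82% of all genes tested were. In the lower direction 0 of the 37 genes were without overlap, against 2.35% of all genes tested. The log2 fold change was 0.71 ± 0.16 (SE, adjusted p = 0.17). Under vehicle the ranges overlapped at 731 to 879.7 in cKO and 428 to 808 in control organoids, with a difference of 0.53 ± 0.16 (SE, adjusted p = 0.78). Dhx58 and Trim25 pointed the same way under E2/MPA, with differences of 0.52 ± 0.19 (SE, adjusted p = 0.33) and 0.24 ± 0.08 (SE, adjusted p = 0.27). Isg20 pointed the other way, with 957 to 1455 in cKO and 1102 to 2657 in control organoids and a difference of -0.57 ± 0.23 (SE, adjusted p = 0.37). Under vehicle the difference of Tap1 was 0.34 ± 0.15 (SE, adjusted p = 0.83).

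The response to E2/MPA was not shown to differ between genotypes for any of the 37 genes. The interaction passed for 0 of 37 genes and 0 of all genes tested in limma, edgeR and DESeq2, and 0 of 37 had an unadjusted p under 0.05, against 1.87% of all genes tested. The difference was below 0 for 21 of 37 genes, against 49.5% of all genes tested. The cKO response minus the control response ran from -0.64 for Isg20 to 0.90 for Cmpk2 on the log2 scale, with standard errors of 0.32 and 0.78. At this spread an interaction of that size could not be told from 0, and the test does not show that the responses were equal.

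**Figure D5:**
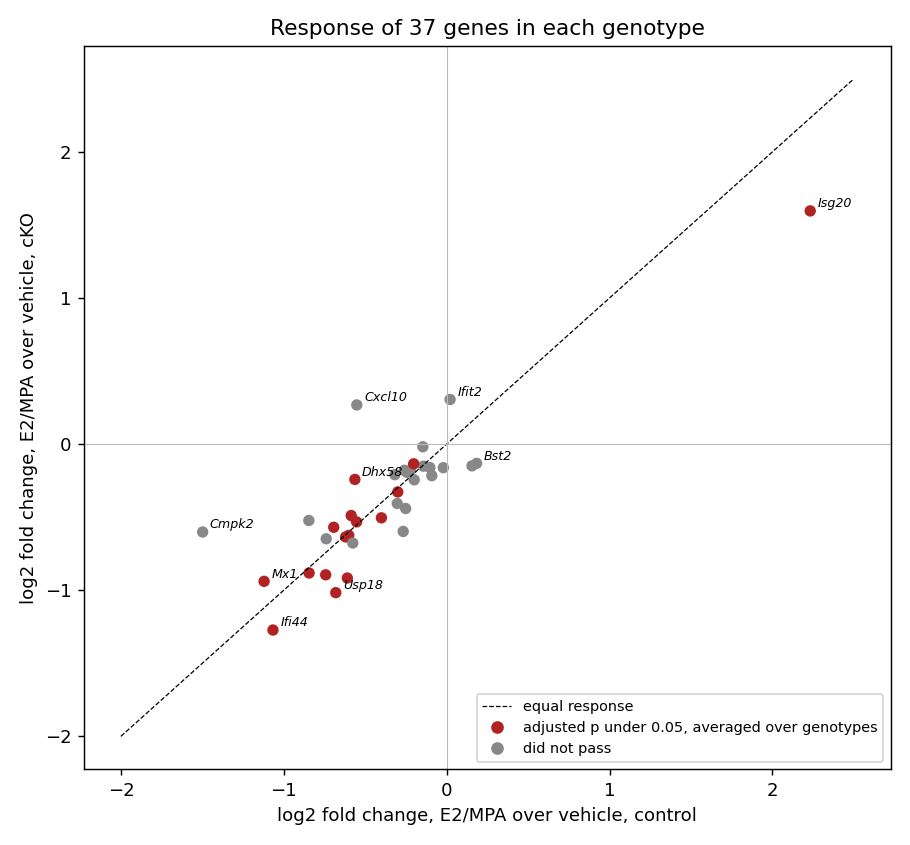
Log2 fold change under E2/MPA over vehicle of each of the 37 genes in cKO (y axis) and control organoids (x axis), with a dashed line of equal response. Red points passed in the averaged test. Most points lie at the lower left, below 0 on both axes, and Isg20 stands alone at 1.60 in cKO and 2.23 in control organoids.

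The genes upstream of these members were examined through lists of the pathway. Of 10 interferon genes listed, Ifne and Ifnk were measured, and the others were not found by symbol among the deposited values. Ifne, which encodes interferon epsilon, was read in every library. In cKO organoids, Ifne counts were 229.6, 188, 209 and 226 under E2/MPA, against 240.1, 228, 307 and 210.0 under vehicle. In control organoids, Ifne counts were 209, 189, 221 and 201 under E2/MPA, against 237, 228, 216 and 232 under vehicle. The ranges overlapped in cKO organoids and in control organoids, and the difference was -0.18 ± 0.08 (SE, adjusted p = 0.13). Ifnk was under the filter, at 0 to 12.6 normalized counts in the 16 libraries. Of 9 receptor and kinase genes, 8 did not pass and Jak2 rose, where 10.8% of all genes tested were higher. Jak2 encodes a kinase of the interferon gamma receptor and of several hormone and cytokine receptors. In cKO organoids, Jak2 counts were 12978, 13066, 13878 and 8990.0 under E2/MPA, against 6129, 6369.5, 6085 and 5344 under vehicle. In control organoids, Jak2 counts were 16073, 18309, 17662 and 9571 under E2/MPA, against 6452, 9228, 8105 and 4672 under vehicle. Its log2 fold change was 1.01 ± 0.22 (SE, adjusted p = 0.019) in cKO and 1.12 ± 0.22 (SE, adjusted p = 0.0065) in control organoids, and the groups did not overlap. The cKO call was lost without M8, M13, M14 or M15, at an adjusted p of up to 0.062, and the control call when the fit held only the compared groups, at 0.066. Averaged over genotypes the Jak2 call was kept in all 28 other settings. Jak1, a kinase of the type I and the gamma receptor and the next in mean count, had a difference of -0.08 ± 0.05 (SE, adjusted p = 0.28).

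Of 10 genes tested that sense nucleic acids upstream of interferon, 3 rose and 2 fell averaged over genotypes, where 10.8% of all genes tested were higher and 9.03% lower. Mavs, the adaptor of the RNA sensors, rose by 0.41 ± 0.09 (SE, adjusted p = 0.0058), Ticam1 (TRIF), the adaptor of a toll-like receptor for RNA, by 0.66 ± 0.16 (SE, adjusted p = 0.0087), and Irf3, a factor that induces interferon, by 0.16 ± 0.04 (SE, adjusted p = 0.0075). Tmem173, which encodes STING, fell by 0.60 ± 0.11 (SE, adjusted p = 0.0014), and Adar, an RNA-editing enzyme that interferon induces, by 0.33 ± 0.09 (SE, adjusted p = 0.015). Among the other STAT and IRF factors and feedback inhibitors reported, Stat3 and Socs3 rose, and Irf2, a repressor of interferon targets, fell. The changes were 0.38 ± 0.07 (SE, adjusted p = 0.0013) for Stat3, 0.30 ± 0.10 (SE, adjusted p = 0.046) for Socs3 and -0.25 ± 0.06 (SE, adjusted p = 0.0064) for Irf2. The Socs3 call was lost in 16 of 28 other settings, at an adjusted p of up to 0.097. They were quantile normalization, edgeR, no filter on low values and the fits without M1, M2, M3, M5, M6, M7, M9, M10, M11, M12, M13, M14 or M16. Adar was picked after its values were seen.

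A second list held 36 interferon-stimulated genes that are not among the 37. Of 33 tested, 10 fell and 0 rose averaged over genotypes, where 9.03% of all genes tested were lower, with a median log2 fold change of -0.26. The 4 with the lowest adjusted p were Ifi27 at -0.56 ± 0.10 (SE, adjusted p = 0.001), Irgm1 at -0.64 ± 0.12 (SE, adjusted p = 0.0016), Sp110 at -1.07 ± 0.21 (SE, adjusted p = 0.0023) and Trim14 at -0.34 ± 0.08 (SE, adjusted p = 0.0069). Irgm1 is a GTPase that interferon gamma induces against bacteria inside cells, and its relative Ifi47 passed in cKO organoids at -1.29 ± 0.30 (SE, adjusted p = 0.025). That call was lost without M5, M6, M7, M8, M13 or M15, at an adjusted p of up to 0.080. Of 11 further antigen processing and MHC class I genes, 3 fell and 1 rose, where 9.03% of all genes tested were lower and 10.8% higher. Psmb10, the remaining catalytic subunit of the immunoproteasome, fell by 0.61 ± 0.11 (SE, adjusted p = 0.0016), Psme1, a proteasome activator subunit, by 0.32 ± 0.07 (SE, adjusted p = 0.0076), and the peptidase gene Erap1 by 0.24 ± 0.06 (SE, adjusted p = 0.015), while the chaperone gene Calr rose by 0.40 ± 0.13 (SE, adjusted p = 0.041). The Calr call was lost in 11 of 28 other settings, at an adjusted p of up to 0.086. They were edgeR and the fits without M1, M4, M7, M8, M9, M10, M11, M13, M14 or M15. These lists were chosen with results of these data known, so they are no independent evidence of the direction.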

How the data were processed

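Libraries were made from Trizol and column-purified RNA with a TruSeq kit and sequenced on a NovaSeq, per the labels' protocols. HISAT2, featureCounts, DESeq2 and the build GRCm39 are named in the submitters' processing notes without versions or roles; whether counting used strand is not stated in those notes. The deposited values are a normalized signal, and from the values themselves they are gene counts divided by 1 size factor per library. Multiplying by a factor per library gave whole reads for 100% of values within 0.01 read, and 14372111 to 20016836 reads per library. Of 23306 identifiers, 22484 had a GENCODE symbol.

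Genes that reached a value of 10 in 4 or more libraries were tested on log2(value + 1) with limma 3.58.1 in R 4.3.3, with a mean-variance trend, 1 mean per group and Benjamini-Hochberg adjustment over all 16509 genes. 6797 genes were not tested. The same code was tested on simulated counts, with an outcome not reported here. Those counts were drawn independently for each library, so they hold no correlation between libraries. Alternatives were other pseudocounts, filters and scalings, library weights, edgeR 4.0.16 and DESeq2 1.42.0 on the recovered reads, and leaving out each library. Chosen after seeing the data were leaving out the 4 stroma-rich libraries and treating libraries 8 numbers apart as a block. Values are printed for members that passed any comparison and for the 2 of each role group with the highest mean. Of each pathway list, up to 4 genes with the lowest adjusted p per comparison are named. Some genes of the list of STAT and IRF factors are not reported here. Members and lists were chosen with earlier results of these data known. As no label ties the libraries to separate animals, the spread behind each p-value is that between libraries and may be technical. Replicates differed by more than sampling noise.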

Additional observations from a re-analysis of the deposited data

Results flagged for a closer look

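Within each group of 4 libraries, 1 library stood far from the other 3 (a gap of over 0.829 of the group's range) in 7 of the 148 pairs of gene and group, and chance gives about 1 in 20. In M12, the stroma-rich control E2/MPA library, Ddx58 was 548.684 where the others were 388 to 393, Usp18 was 414.537 where the others were 217 to 230.0, and Ifit1 was 78.069 where the others were 19.0 to 24.2 normalized counts. In M2, under vehicle in control organoids, Irf9 was 712.274 where the others were 1013 to 1031, and Parp14 was 905.299 where the others were 1199.6 to 1270.0. In M8, the stroma-rich cKO vehicle library, Irf1 was 707.738 where the others were 481 to 513. In M15, under E2/MPA in cKO organoids, Bst2 was 2182.755 where the others were 2431 to 2472. The causes were not tested.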

How the results depend on the processing

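Averaged over genotypes, 16 genes passed in the reported fit, and 13 to 22 in the other settings that kept all libraries or left out the 4 stroma-rich ones. Over all genes 3269 passed in the reported fit and 2997 to 6351 in those settings. Of the 16, 10 (Irf1, Irf7, Irf9, Mx1, Isg20, Usp18, Dtx3l, Parp14, Psmb8 and Psmb9) kept their call in all 28 other settings, and Ddx58, Dhx58, Oasl2, Trim25, Ifi44 and Rtp4 lost it in at least 1. Leaving out 1 library at a time gave 10 to 20 genes averaged, 2 to 7 in cKO and 2 to 14 in control organoids, and 0 to 0 for genotype and interaction. Over all genes these fits gave 2585 to 3860 averaged, 362 to 827 in cKO and 759 to 2230 in control organoids. For genotype they gave 0 to 10 under E2/MPA and 0 to 2 under vehicle over all genes, and for the interaction 0. In cKO organoids the count was 6 with DESeq2, 9 with library weights, 8 without the stroma-rich libraries and 16 with a block of libraries 8 numbers apart, against 2 reported. Over all genes the cKO counts were 1273, 1678, 959 and 3098 in those settings, against 692. In control organoids it was 5 with quantile normalization, 5 with DESeq2, 15 with library weights, 16 without the stroma-rich libraries and 17 with that block, against 3 reported. Over all genes the control counts were 1616, 2182, 2549, 2210 and 4479, against 1469. For cKO against control under E2/MPA, DESeq2 called 1 gene (193 over all genes) and library weights called 4 (597), against 0 in the reported fit (1). The averaged fold change of Isg15, 0.00, was -0.003 with quantile normalization, 0 with TMM scaling, -0.14 with library weights, -0.15 without the stroma-rich libraries and -0.19 to 0.10 without 1 library. That of Bst2, 0.03, was -0.025 with quantile normalization, -0.025 with edgeR, -0.022 with DESeq2, -0.14 with library weights, -0.18 without the stroma-rich libraries and -0.060 to 0.12 without 1 library. The causes were not tested. The labels give no replicate numbers shared between groups, so the block is a hint from the data and not from the design. The correlation within a block, a consensus over genes that limma estimated with the group means in the model, was 0.496. With the block 22 genes passed averaged over genotypes, and 6351 over all genes. With 4 libraries per group and log2 SDs of up to 1.097, small differences in the most variable genes were not detectable.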
